A study of Mus musculus with 15 samples.

Results

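The genes described here are 10 transcripts of the acute phase response in mouse liver, 4 serum amyloid A genes (Saa1, Saa2, Saa3 and Saa4), 2 orosomucoid genes (Orm1 and Orm2), haptoglobin (Hp), lipocalin 2 (Lcn2), and the signalling genes Stat3 and Socs3. They were taken by gene symbol from a deposited table of 16809 genes, and all 10 passed the filter on low counts. The study holds 15 liver RNA libraries, all labelled wild type, in 5 groups of 3, and a library is called here by its group and the replicate number of its label. The 3 flavonol groups were dosed by gavage with quercetin at 200 mg/kg/day (replicates 2, 5 and 8), myricetin at 75 mg/kg/day (replicates 5, 7 and 8) or kaempferol at 100 mg/kg/day (replicates 3, 5 and 8), on a high-fat diet that the labels of these groups do not break down further. The model group (replicates 1, 2 and 5) had a high-fat feed without a flavonol, in which 1% cholesterol and 0.2% sodium cholate, with lard and egg yolk powder at 10% each, were added to standard feed making up 78.8%. The control group (replicates 1, 2 and 3) had standard feed. All groups were fed for 6 weeks. Strain, sex, age, fasting, the hour of collection and any vehicle gavage are not in the labels, and the flavonol doses differ, so values of the flavonol groups are given side by side and not tested against each other.

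The acute phase response is the change in plasma proteins that the liver makes in infection, injury and inflammation. Interleukin 6 family cytokines bind receptors that contain the shared subunit gp130, Janus kinases phosphorylate STAT3, and STAT3 together with C/EBP factors and the interleukin 1 and NF-kB arm switches on genes such as the serum amyloids, haptoglobin and the orosomucoids. SOCS3 is itself a STAT3 target and shuts the gp130 receptor off again. Saa1 and Saa2 encode apolipoproteins of the high density lipoproteins whose levels climb steeply in inflammation, Saa3 is also made outside hepatocytes, in macrophages and adipocytes, and Saa4 is the constitutive family member. Hp encodes the plasma protein that captures free hemoglobin, Orm1 and Orm2 encode alpha-1-acid glycoproteins that carry lipophilic drugs, and Lcn2 encodes a siderophore-binding protein of hepatocytes and neutrophils.

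The 4 serum amyloid genes stand in 1 cluster on mouse chromosome 7 (build GRCm38.p6, positions of the deposited table), with Saa3 at chr7:46711998-46719615 on the minus strand, Saa4 at chr7:46727992-46732603 on the minus strand, Saa1 at chr7:46740497-46743181 on the minus strand and Saa2 at chr7:46751833-46754314 on the plus strand. Orm1 (chr4:63344556-63348163) and Orm2 (chr4:63362449-63365877) are neighbours on the plus strand of chromosome 4. Hp lies at chr8:109575128-109579172 and Lcn2 at chr2:32384637-32387739, both on the minus strand, and Stat3 at chr11:100886806-100939594 on the minus strand. The deposited entry for Socs3 runs over chr11:117966079-117973506 and is listed on the plus strand, while RefSeq ends the gene at 117970336 and places its start on the minus strand, and the entry includes 1 RNAcentral transcript. The Saa3 entry also includes 1 RNAcentral transcript. Counts under both names can hold reads of that extra transcript.

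Sequences just upstream of the genes are shown for reference, and whether they bear on the levels was not tested. RefSeq promoter windows (GRCm38.p6) were at hand for 8 of the 10 genes, all but Hp and Orm1, and the 250 bases before each start were searched on both strands for a C/EBP-type motif, TTGCNNAA, a STAT motif, TTCNNNGAA, and an NF-kB motif. Each window is set by 1 annotated start. Those of Saa1, Saa3, Socs3 and Stat3 lie wholly or partly inside the gene extents given above, which reach further upstream. The C/EBP-type letters occurred in 6 of the 8 windows, against 9.56% of 32851 promoter windows of the same length. They stood 182 bases before the start of Saa1, 183 before Saa2, 99 before Saa3, 245 and 52 before Saa4, 120 before Orm2 and 216 before Lcn2. The STAT letters occurred in 1 of the 8 windows, that of Socs3, 154 bases before the start, against 7.02% of all windows. The NF-kB motif was in 0 of the 8, against 7.25%. A match describes letters and is not evidence of a bound factor. The matched stretches, 5′ to 3′ on the strand of the gene with the motif in capitals, show how alike the copies before Saa1 and Saa2 are and how the others differ from them.
Saa1 chr7:46743145-46743172: tgtgctcccaTTGCACAAtgagggagaa
Saa2 chr7:46751640-46751667: tgtgctcccaTTGCACAAtgagggaaaa
Saa3 chr7:46715758-46715785: gtaagtgggaTTATGCAAgatcaaacag
Orm2 chr4:63362319-63362346: agagaacattTTGCGCAAgacatttccc
Lcn2 chr2:32387938-32387965: gcccttcctgTTGCTCAAccttgcacag
Socs3 chr11:117969502-117969530: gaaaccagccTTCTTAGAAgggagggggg

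The whole 250-base windows of Saa2, Orm2 and Lcn2 follow in the same notation, as the genes of highest correlation with Saa1 among those that have a window outside the extents above (Orm1 has no window).
Saa2 chr7:46751583-46751832, plus strand: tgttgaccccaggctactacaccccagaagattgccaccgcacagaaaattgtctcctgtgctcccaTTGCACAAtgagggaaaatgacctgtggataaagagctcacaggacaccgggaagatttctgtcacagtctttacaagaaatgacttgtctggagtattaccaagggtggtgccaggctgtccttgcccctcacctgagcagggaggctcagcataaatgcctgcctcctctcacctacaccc
Orm2 chr4:63362199-63362448, plus strand: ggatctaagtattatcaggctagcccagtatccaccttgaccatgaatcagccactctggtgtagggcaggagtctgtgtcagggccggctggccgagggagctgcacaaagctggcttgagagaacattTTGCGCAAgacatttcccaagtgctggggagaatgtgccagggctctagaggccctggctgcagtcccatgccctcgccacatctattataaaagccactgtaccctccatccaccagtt
Lcn2 chr2:32387740-32387989, minus strand: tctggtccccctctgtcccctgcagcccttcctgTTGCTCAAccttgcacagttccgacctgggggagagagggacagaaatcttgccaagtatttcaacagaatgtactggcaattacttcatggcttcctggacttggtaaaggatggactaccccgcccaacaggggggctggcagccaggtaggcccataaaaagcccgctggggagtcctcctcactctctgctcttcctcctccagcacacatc

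Saa1 and Saa2 are near copies. Their promoter windows shared 95.6% of 249 aligned bases and their longest coding transcripts (GENCODE M21) shared 94.4% of 606. Orm1 and Orm2 transcripts shared 91% and Orm2 and Orm3 transcripts 88.5%, whereas Saa1 shared 67.5% with Saa3 and 66.6% with Saa4. Reads of Saa1 and Saa2, and of the orosomucoids, were divided between the copies by the authors' counting, so the split within each pair is less certain than the sum.

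Library totals ran between 15.85 and 17.58 M estimated counts, and 12658 genes were tested. Changes are log2 fold changes from the edgeR quasi-likelihood test with Benjamini-Hochberg adjustment over these genes, each given with its standard error, and passing means an adjusted p under 0.05. Levels are CPM, the counts of a gene scaled to the TMM-adjusted library size. Nothing in the labels ties each library to a mouse of its own, and the p-values then reflect only library-to-library spread, which may be technical. The 10 hepatocyte markers checked (Alb, Apob, Ttr and others) were above 0 in all 15 libraries. Kaempferol replicate 8 stood apart from its group. Its 12 macrophage and Kupffer cell markers summed to 863 CPM, against 352.5 and 371 CPM in kaempferol replicates 3 and 5. Much of the excess was in Marco and Cd5l. Kaempferol replicate 8 was also the lowest of its group for 10 of the 10 genes described here.

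On the length-corrected scale of TPM, which the authors deposited and which divides counts by transcript length, Hp was the most abundant of the 10 genes and Socs3 the least. The median over the 15 libraries was 3703 TPM for Hp, 1284 TPM for Orm1, 218 TPM for Saa1, 179 TPM for Saa4, 74.9 TPM for Saa2, 32.8 TPM for Orm2, 28.7 TPM for Stat3, 25.3 TPM for Saa3, 8.82 TPM for Lcn2 and 4.07 TPM for Socs3. Hp lay above Orm1 and Orm1 above Saa1 in every library, while each later pair of neighbours in this order overlapped over the 15 libraries. In kaempferol livers the median of Saa2, 315 TPM, stood above that of Saa4, 192 TPM, and in model livers it was 34.6 TPM against 171 TPM for Saa4.

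**Figure D1:**
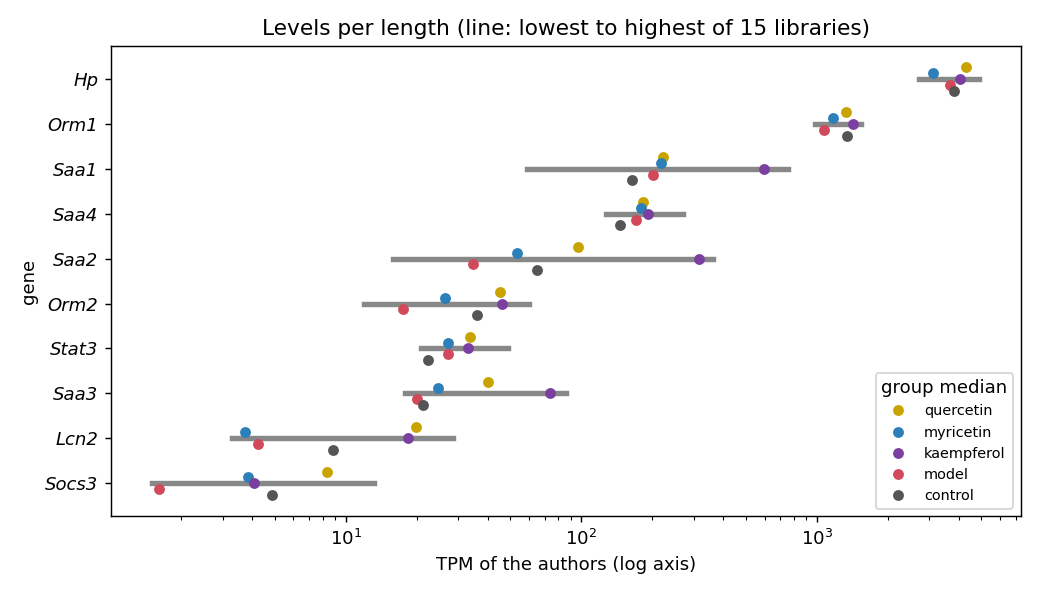
Level of the 10 genes in TPM of the authors on a log axis; the grey line runs from the lowest to the highest of 15 libraries and each point is the median of a group of 3 libraries. Hp and Orm1 stand apart at the top, and Saa1, Saa2, Socs3 and Lcn2 have the longest lines.

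Quercetin livers differed from model livers mainly in Socs3, the feedback inhibitor of gp130 signalling, which rose by 2.08 ± 0.31 on the log2 scale (adjusted p 0.00164, edgeR). It was the 1 member of 10 that passed, where 7.82% of all genes tested passed in this comparison. In 5 of the 10 genes, Saa2, Saa3, Orm2, Lcn2 and Socs3, every quercetin library lay above every model library, where 15.4% of all genes tested did so. The median log2 fold change of the 10 genes was 0.535, beside 0.007 over all genes tested, and 9 of the 10 were positive. Hp, Orm1, Saa4 and Stat3 had fold changes between -0.01 and 0.05 on the log2 scale, with 95% intervals that reached no further than 0.45 to either side.

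Kaempferol livers differed from model livers mainly in Saa3, which rose by 1.71 ± 0.26 on the log2 scale (adjusted p 0.0288, edgeR). That comparison had 5 passing genes in all, 0.0395% of those tested. Among the others, Nat8f6 and Srebf1 fell by 2.21 and 1.11 on the log2 scale. Saa3 and Socs3 were the 2 members whose kaempferol libraries all lay above the model libraries, where 10.2% of all genes did so. All 10 genes had a positive fold change, with a median of 1.11 beside 0.010 over all genes tested, but the intervals of Saa1, Saa4, Orm1 and Hp included 0, and the other uncalled genes missed the adjusted threshold.

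Myricetin livers differed from model livers in 0 of the 10 genes by the adjusted edgeR test, where 0.395% of all genes tested passed, and in 0 by DESeq2, where 1.64% did. The median log2 fold change of the 10 genes was -0.0048, with 5 positive and 5 negative. The exception in the order of the libraries was Socs3, all 3 of whose myricetin values lay above the model values, where 9.54% of all genes did so. By unadjusted p under 0.05, Socs3 was also the single member past the line, beside 11.9% of all genes.

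Model livers differed from control livers in Socs3 alone among the 10, which fell by 1.22 ± 0.32 on the log2 scale (adjusted p 0.0455, edgeR), where 4.46% of all genes tested passed. Its model libraries all lay below its control libraries, where 14.9% of all genes did so. The acute phase proteins themselves did not pass, and 8 of the 10 fold changes were negative with a median of -0.215, beside -0.0082 over all genes tested. The comparisons of the flavonol groups with the model use the same 3 model libraries as this one, so a low or high model library enters all 4.

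**Figure D2:**
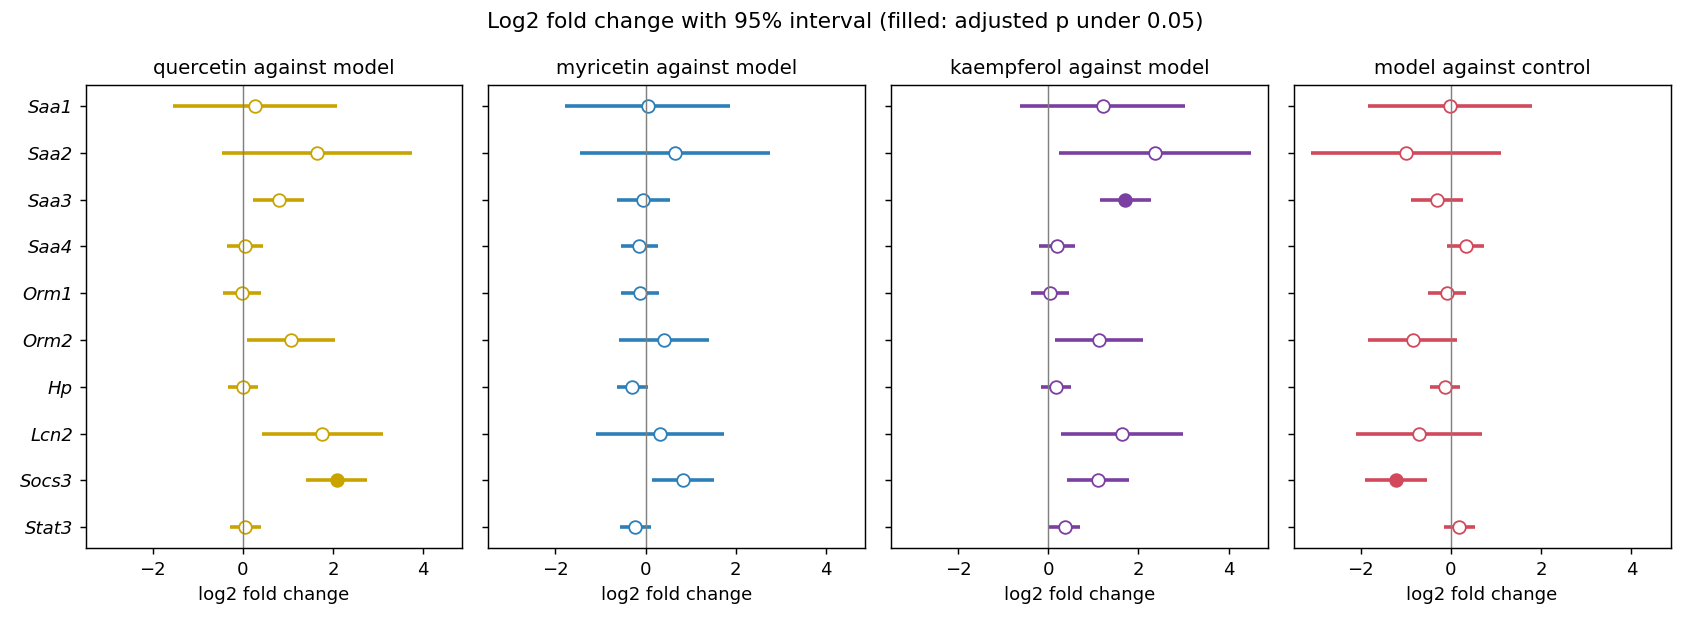
Log2 fold change (x axis) of the 10 genes in 4 comparisons with the 95% interval; filled points have an adjusted p under 0.05. Socs3 is filled for quercetin against model and for model against control, Saa3 for kaempferol against model, and no gene for myricetin against model.

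Among the signalling genes, Socs3 had 15.2, 11.99 and 29.9 CPM in quercetin replicates 2, 5 and 8, 6.52, 8.56 and 8.91 CPM in myricetin replicates 5, 7 and 8, 10.9, 10.1 and 7.78 CPM in kaempferol replicates 3, 5 and 8, 3.43, 6.28 and 3.69 CPM in model replicates 1, 2 and 5, and 11.4, 10.2 and 9.75 CPM in control replicates 1, 2 and 3. The 3 model libraries were the 3 lowest of the 15 and the 3 quercetin libraries the 3 highest, with quercetin replicate 8 well above the rest. Means were 19.0 ± 9.55 CPM in quercetin livers, 8.00 ± 1.29 CPM in myricetin livers, 9.60 ± 1.63 CPM in kaempferol livers, 4.47 ± 1.58 CPM in model livers and 10.45 ± 0.861 CPM in control livers (SD, n = 3 libraries each). The control libraries were the closest together of any group.

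The rise of Socs3 in quercetin over model livers had a 95% interval of 1.41 to 2.75 on the log2 scale and stood at rank 88 of 12658 genes by p. It held without any 1 library, with adjusted p between 0.000513 and 0.0115 (edgeR), and was 1.60 without quercetin replicate 8. The fall in model below control livers had an interval of -1.90 to -0.54 and stayed past the threshold only when model replicate 2 was left out (adjusted p 0.0334, edgeR). It was lost without control replicate 1, 2 or 3 (adjusted p 0.0763, 0.13 and 0.11) and without model replicate 1 or 5 (adjusted p 0.153 and 0.165), while the fold change kept between -1.56 and -1.06.

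For the other flavonols, Socs3 was 1.10 ± 0.32 above the model with kaempferol (adjusted p 0.181, edgeR) and 0.83 ± 0.32 above it with myricetin (adjusted p 0.312). DESeq2 gave an adjusted p of 0.032 for kaempferol. Set against the control, quercetin livers were 0.86 ± 0.29 higher on the log2 scale (adjusted p 0.0711, edgeR) with no overlap of libraries. Kaempferol livers differed by -0.12 ± 0.30 (adjusted p 0.825, edgeR), with overlap. Myricetin livers differed by -0.39 ± 0.30 (adjusted p 0.447, edgeR), with all 3 libraries below the control ones, where 13.9% of all genes were lower without overlap. Against the control, 0 of the 10 genes passed with quercetin and 0 with myricetin, where 11.6% and 9.2% of all genes tested did, and 15.4% of all genes were higher without overlap with quercetin. The quercetin value for Socs3 against control passed without quercetin replicate 5 (adjusted p 0.0216, edgeR) and was 0.38 without quercetin replicate 8 (adjusted p 0.315). In these whole-liver samples fewer cells of a type and less RNA per cell cannot be told apart.

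Ribosomal protein transcripts moved in the same libraries as Socs3. The 16 ribosomal protein genes listed summed to 3958, 4156 and 4757 CPM in quercetin livers, against 3367, 3390 and 3389 CPM in model livers, and 8 of 16 passed as higher (among them Rps27, Rps16 and Rps23, which rose by 0.73, 0.54 and 0.55 on the log2 scale). In model livers, whose sums are given above, 4 of 16 passed as lower than in control livers, where the sums were 4113, 4271 and 4268 CPM (among them Rps16, Rps27 and Rpl5, which fell by 0.51, 0.51 and 0.40). Over all genes tested, 7.82% passed in quercetin against model and 4.46% in model against control. Quercetin replicate 8 had the highest value of the 15 libraries for both Socs3 and the ribosomal sum. The part of ribosomal protein transcripts, a measure kept for RNA quality and handling, in the Socs3 result was not tested.

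Stat3, which encodes the transcription factor that gp130 receptors activate, was much steadier, with 2.13-fold between its lowest and highest library. It had 117, 100.2 and 100.5 CPM in quercetin livers, 95.7, 90.5 and 75.2 CPM in myricetin livers, 160.0, 129 and 104 CPM in kaempferol livers, 117, 93.3 and 95.6 CPM in model livers, and 110.2, 83.1 and 75.4 CPM in control livers. Kaempferol replicates 3 and 5 were the 2 highest libraries, and kaempferol replicate 8 lay among those of the other groups. Against the model, kaempferol livers were 0.36 ± 0.16 higher (adjusted p 0.403, edgeR).

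Against the control, Stat3 rose in kaempferol livers by 0.55 ± 0.16 on the log2 scale (95% interval 0.20 to 0.90, adjusted p 0.0361, edgeR), although 1 control library lay above 1 kaempferol library. In that comparison 2 of the 10 genes passed, Saa3 and Stat3, where 13.4% of all genes tested did. The call was lost without control replicate 2 or 3 (adjusted p 0.138 and 0.151) and without kaempferol replicate 3 or 5 (adjusted p 0.175 and 0.0714), and it was lost when only the 2 groups entered the fit (adjusted p 0.107). Quercetin livers were 0.24 above control livers (adjusted p 0.356, edgeR) and myricetin livers differed by -0.04 (adjusted p 0.9).

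**Figure D3:**
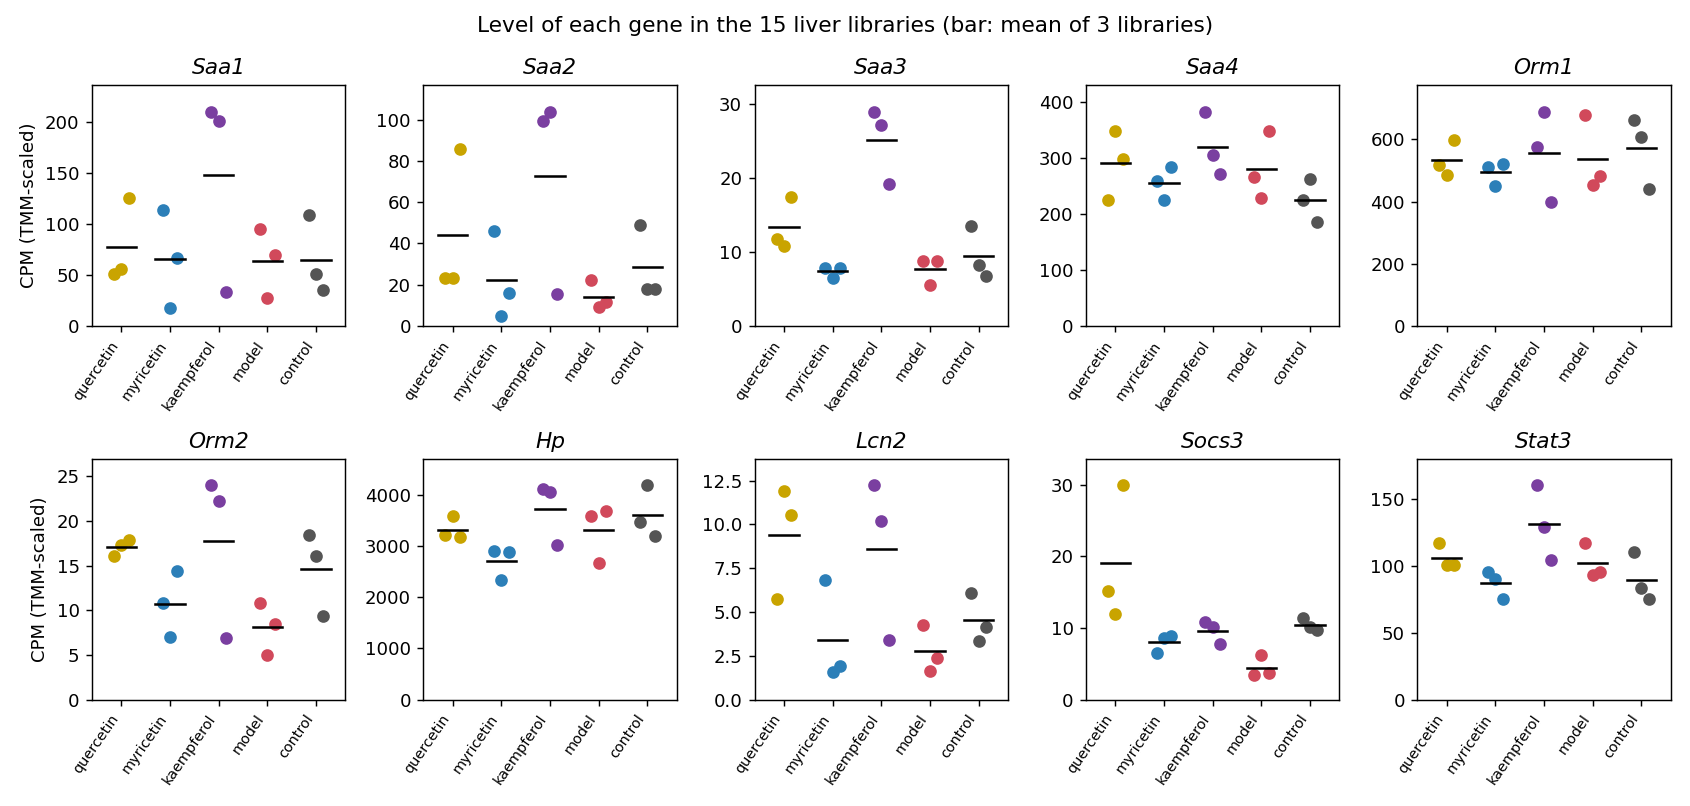
CPM of each of the 10 genes in the 15 libraries (points), by group, with a bar at the mean of 3 libraries. Socs3 is lowest in the 3 model libraries, Saa3 highest in the 3 kaempferol libraries, and Saa1 and Saa2 scatter widely within every group.

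Saa1, the major inducible serum amyloid, had 50.7, 55.9 and 125 CPM in quercetin livers, 113, 17.2 and 66.3 CPM in myricetin livers, 209.7, 200.3 and 32.9 CPM in kaempferol livers, 94.8, 27.7 and 69.0 CPM in model livers, and 108, 51.0 and 35.5 CPM in control livers. The coefficient of variation within a group was 53% to 73.2%, and all 5 groups overlapped. Kaempferol replicates 3 and 5 were the highest of the 15 and myricetin replicate 7 the lowest. Group means were 77.2 ± 41.4, 65.6 ± 48.1 and 148 ± 99.4 CPM with quercetin, myricetin and kaempferol, 63.8 ± 33.8 CPM in model livers and 64.9 ± 38.3 CPM in control livers (SD, n = 3 libraries each).

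No comparison of Saa1 passed. The fold change against the model was 0.27 ± 0.82 with quercetin (adjusted p 0.883, edgeR), 0.04 ± 0.82 with myricetin (adjusted p 0.99) and 1.21 ± 0.83 with kaempferol (adjusted p 0.652). Model livers differed from control livers by -0.03 ± 0.82, with a 95% interval of -1.85 to 1.80 on the log2 scale. With 3 libraries a group, a change of either sign within that interval was not excluded.

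Saa2 followed the same libraries. It had 23.4, 23.1 and 86.0 CPM in quercetin livers, 46.0, 4.58 and 15.9 CPM in myricetin livers, 99.2, 104 and 15.2 CPM in kaempferol livers, 22.1, 8.90 and 11.5 CPM in model livers, and 49.1, 17.97 and 18.1 CPM in control livers. The 3 quercetin libraries lay above the 3 model libraries, yet the fold change of 1.64 ± 0.95 missed the threshold (adjusted p 0.335, edgeR) and was 0.72 without quercetin replicate 8. Kaempferol livers were 2.36 ± 0.96 above the model (adjusted p 0.361), with replicates 3 and 5 high and replicate 8 within the model range.

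Because the 2 genes are near copies, their counts were also summed before the fit. The sum passed in no comparison, with 1.50 ± 0.86 for kaempferol against model (adjusted p 0.567, edgeR), 0.64 ± 0.85 for quercetin against model (adjusted p 0.711) and -0.26 ± 0.85 for model against control (adjusted p 0.893). The share of the pair assigned to Saa2 was lower in model livers than elsewhere, as a description chosen after the values were seen. The ratio of Saa2 to Saa1 in TPM was 0.472, 0.423 and 0.701 in quercetin livers, 0.414, 0.268 and 0.244 in myricetin livers, 0.48, 0.527 and 0.476 in kaempferol livers, 0.24, 0.338 and 0.172 in model livers, and 0.463, 0.361 and 0.523 in control livers. The model libraries lay below the quercetin, kaempferol and control libraries and overlapped the myricetin ones.

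Saa3, the serum amyloid also made by macrophages and adipocytes, gave the clearest contrast of the family. It had 11.8, 10.8 and 17.4 CPM in quercetin livers, 7.84, 6.45 and 7.87 CPM in myricetin livers, 28.9, 27.2 and 19.2 CPM in kaempferol livers, 8.76, 5.58 and 8.70 CPM in model livers, and 13.5, 8.18 and 6.71 CPM in control livers. The 3 kaempferol libraries were the 3 highest of the 15. The 3 quercetin libraries lay above the model and myricetin ones and overlapped the control ones. The means were 25.1 ± 5.20 CPM in kaempferol livers and 7.68 ± 1.82 CPM in model livers (SD, n = 3 libraries each).

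The rise of Saa3 in kaempferol over model livers had a 95% interval of 1.15 to 2.27 on the log2 scale and ranked 5 of 12658 genes by p. It passed without kaempferol replicate 5 or 8 (adjusted p 0.0406 and 0.0241, edgeR) and missed without model replicate 1, 2 or 5 (adjusted p 0.113, 0.208 and 0.0947) or kaempferol replicate 3 (adjusted p 0.125), with fold changes of 1.50 to 1.87. Against the control, kaempferol livers rose by 1.41 ± 0.26 (adjusted p 0.0037, edgeR), which held without any 1 library (adjusted p 0.000708 to 0.0236). Quercetin livers were 0.80 ± 0.26 above the model (adjusted p 0.083) and 0.49 ± 0.26 above the control (adjusted p 0.238), the second passing without control replicate 1 (adjusted p 0.04). Myricetin livers differed from the model by -0.05 ± 0.27 (adjusted p 0.961).

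Markers of macrophages, a cell type that makes Saa3, had higher sums in these libraries. The 12 macrophage and Kupffer cell markers summed to 352.5, 371 and 863 CPM in kaempferol replicates 3, 5 and 8, against 259, 213 and 299.5 CPM in model replicates 1, 2 and 5. All 12 fold changes were positive. For 9 of the 12 every kaempferol library lay above every model library, where 10.2% of all genes did so. By the adjusted edgeR test 0 of 12 passed (adjusted p 0.207 for Clec4f, a Kupffer cell lectin, and 0.16 for Cd68), where 0.0395% of all genes did. Within the kaempferol group the order was opposite, since replicate 8 had the highest marker sum and the lowest Saa3. Its excess was uneven over the 12 markers. Marco had 198 CPM there, against 12.3 and 16.9 CPM in replicates 3 and 5, and Cd5l 295 CPM, against 93.5 and 98.9 CPM. Clec4f had 121.5 CPM, against 104 and 119 CPM, and Vsig4 24.6 CPM, against 22.0 and 22.0 CPM. Against the control, whose sums were 132.5, 157.5 and 94.9 CPM, 10 of the 12 rose in kaempferol livers and 4 of the 12 in model livers, where Saa3 did not pass. The shares of all genes tested that passed were 13.4% for kaempferol and 4.46% for the model. Adipocytes are another source of Saa3, and the 5 adipocyte markers in the table summed to 6.05 to 9.57 CPM in kaempferol livers, 7.53 to 30.5 CPM in model livers and 2.705 to 5.03 CPM in control livers. Of these, Adipoq, Retn and Plin1 were at 0 in most libraries, and Cfd and Fabp4 were abundant enough to test. Cfd, the adipsin gene, had 0.886, 0.828 and 0.284 CPM in kaempferol livers, 2.39, 2.04 and 23.6 CPM in model livers, and 0.0634, 0.0644 and 0.0621 CPM in control livers. It passed as higher in model than in control livers (adjusted p 0.0287, edgeR) and did not pass for kaempferol against model (adjusted p 0.191), although those libraries did not overlap. Fabp4, a fatty acid binding protein gene, rose by 0.91 in kaempferol over control livers (adjusted p 0.034, edgeR) and differed by 0.24 from the model (adjusted p 0.806). The part of macrophage and adipocyte markers in the Saa3 result was not tested.

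Saa4, the constitutive family member, had 224, 348 and 298 CPM in quercetin livers, 258, 224 and 284 CPM in myricetin livers, 383, 305 and 272 CPM in kaempferol livers, 266, 228 and 348 CPM in model livers, and 225, 262 and 186 CPM in control livers. The groups overlapped in every comparison with the model or of the model with the control. The fold changes against the model were 0.05 ± 0.19 with quercetin, -0.14 ± 0.19 with myricetin and 0.19 ± 0.19 with kaempferol, and that of model against control was 0.32 ± 0.19, with adjusted p of 0.913, 0.831, 0.783 and 0.343 (edgeR).

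Orm1 and Hp, the 2 most abundant of the genes described, varied by 1.72-fold and 1.79-fold over the 15 libraries. Orm1 averaged 534 ± 58.8, 494 ± 39.0 and 555 ± 146 CPM with quercetin, myricetin and kaempferol, 538 ± 123 CPM in model livers and 571 ± 115 CPM in control livers (SD, n = 3 libraries each). Its log2 fold changes against the model were -0.01, -0.12 and 0.05 for quercetin, myricetin and kaempferol, and -0.09 for model against control, all with a standard error of 0.20 and none past the threshold.

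Hp had 3213, 3584 and 3172 CPM in quercetin livers, 2909, 2336 and 2883 CPM in myricetin livers, 4111, 4066 and 3025 CPM in kaempferol livers, 3598, 2666 and 3692 CPM in model livers, and 3477, 4189 and 3191 CPM in control livers. The 3 myricetin libraries lay below every quercetin and control library. Against the model, myricetin livers differed by -0.29 ± 0.16 (adjusted p 0.495, edgeR), with 2 of 3 model libraries above all myricetin ones. Against the control, the difference of -0.42 came with no overlap of libraries and an adjusted p of 0.105, and 13.9% of all genes were lower without overlap there. For quercetin against model the difference was 0.00 ± 0.16, with a 95% interval of -0.33 to 0.34.

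Orm2, the less abundant orosomucoid, had 16.01, 17.3 and 17.9 CPM in quercetin livers, 10.8, 7.06 and 14.4 CPM in myricetin livers, 24.0, 22.2 and 6.93 CPM in kaempferol livers, 10.8, 5.00 and 8.50 CPM in model livers, and 18.4, 16.1 and 9.32 CPM in control livers. The quercetin libraries lay close together and above every model library, at 1.07 ± 0.45 on the log2 scale (adjusted p 0.176, edgeR). Kaempferol replicates 3 and 5 were the highest of the 15 and replicate 8 lay among the model libraries, so the fold change of 1.13 ± 0.45 did not pass (adjusted p 0.338) and was 1.51 without replicate 8 (adjusted p 0.118). With the counts of Orm1, Orm2 and Orm3 summed, a sum that is mostly Orm1, quercetin livers differed from model livers by 0.02 ± 0.20 (adjusted p 0.977).

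Lcn2, which encodes an iron-scavenging lipocalin, had 5.73, 11.9 and 10.5 CPM in quercetin livers, 6.81, 1.57 and 1.90 CPM in myricetin livers, 12.2, 10.2 and 3.41 CPM in kaempferol livers, 4.29, 1.63 and 2.37 CPM in model livers, and 6.08, 3.35 and 4.16 CPM in control livers. Every quercetin library lay above every model library, and kaempferol replicate 8 lay within the model range. The fold changes against the model were 1.76 ± 0.62 with quercetin (adjusted p 0.109, edgeR), 1.64 ± 0.62 with kaempferol (adjusted p 0.312) and 0.32 ± 0.65 with myricetin (adjusted p 0.896). Model livers differed from control livers by -0.72 ± 0.64 (adjusted p 0.56).

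Quercetin livers also held more of 2 neutrophil transcripts, S100a8 and S100a9, which rose over the model by 2.20 and 1.66 on the log2 scale (adjusted p 0.0205 and 0.0187, edgeR). They were the 2 that passed of the 4 neutrophil markers abundant enough to test among 12, where 7.82% of all genes tested passed. The 12 markers summed to 9.56, 15.4 and 6.65 CPM in quercetin replicates 2, 5 and 8, against 6.25, 2.91 and 6.13 CPM in model replicates 1, 2 and 5. Lcn2 was the highest of the quercetin group in replicate 5, as was this sum, while kaempferol replicate 8 had the second highest sum of the 15 libraries, 14.5 CPM, and the lowest Lcn2 of its group. Csf3r alone had 8.97 CPM in kaempferol replicate 8, against 4.65 and 2.93 CPM in replicates 3 and 5. S100a8 had 1.66, 0.700 and 1.53 CPM in kaempferol replicates 3, 5 and 8, and S100a9 had 2.21, 1.02 and 1.65 CPM. The part of the neutrophil markers in the Lcn2 values was not tested.

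**Figure D4:**
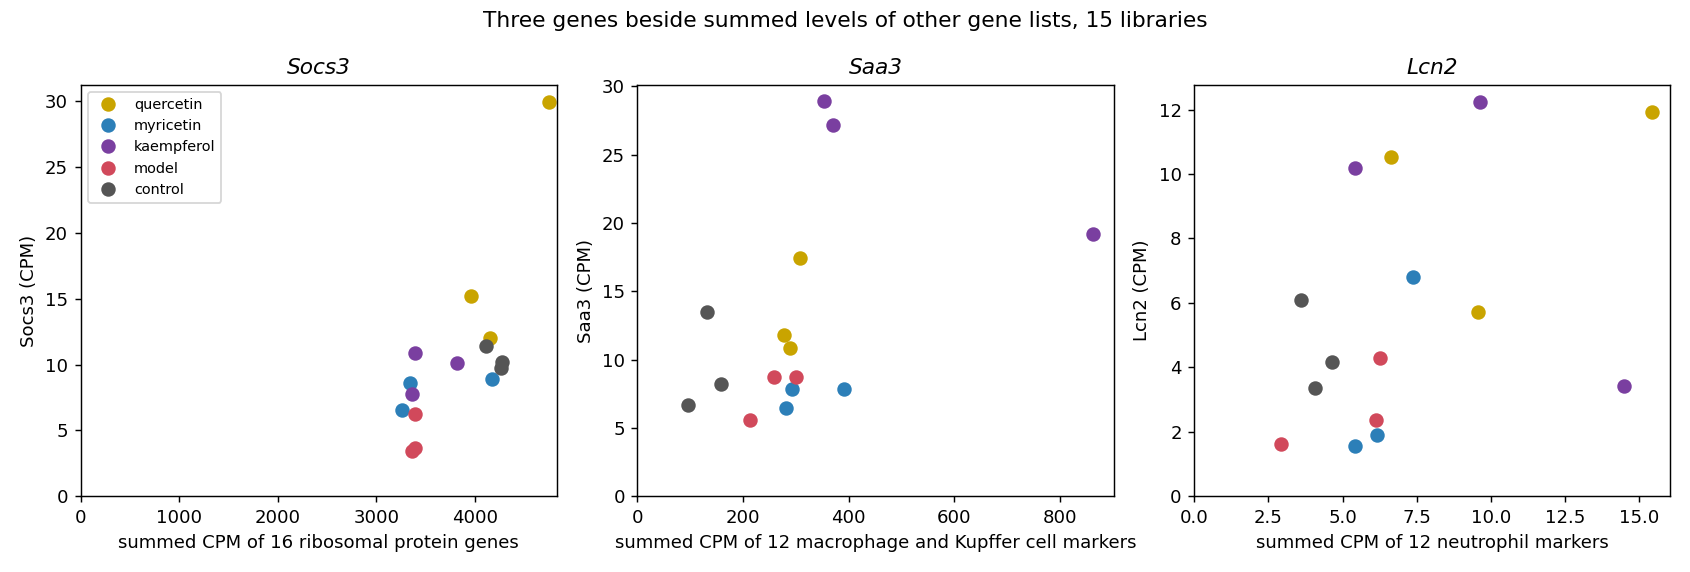
Socs3, Saa3 and Lcn2 in CPM (y axes) beside the summed CPM of 16 ribosomal protein genes, 12 macrophage and Kupffer cell markers and 12 neutrophil markers (x axes) in the 15 libraries. Quercetin replicate 8 is at the top right for Socs3, and kaempferol replicate 8 has the highest macrophage sum but not the highest Saa3.

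The authors' deposited table gives its own log2 fold changes and q values for the same comparisons with the model and of the model with the control. In the authors' deposited table the q value was under 0.05 for Saa3 (0.0267), Orm2 (0.000482), Lcn2 (2.71e-05) and Socs3 (6.19e-09) with quercetin, where 5.95% of all genes with a q value were under 0.05. With kaempferol the authors' deposited table has Saa3 (1.85e-10), Lcn2 (0.0171) and Socs3 (0.00734) under 0.05, beside 1.73% of all genes. For myricetin the authors' deposited table has 0 of the 10 genes under 0.05, beside 1.73% of all genes, with Socs3 at 0.0794. For model against control the authors' deposited table has Socs3 alone (0.000118), beside 6.28% of all genes, with Orm2 at 0.0504. The quasi-likelihood test used here called 1, 1, 0 and 1 of the 10 in the same 4 comparisons.

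Within groups the acute phase proteins varied more than most liver transcripts. The pooled within-group SD of log2(CPM + 1) was 1.18 for Saa2 and 1.10 for Saa1, at the 99.9 percentile of all genes tested for both, 0.66 for Lcn2 and 0.56 for Orm2, at the 99.1 and 98.5 percentiles, and 0.21 for Hp, at the 62.4 percentile. Saa2 differed 22.7-fold and Saa1 12.2-fold between the lowest and the highest library, against 8.72-fold for Socs3, 7.80-fold for Lcn2 and 5.18-fold for Saa3.

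This variation was shared between the genes. Over the 15 libraries, log2(CPM + 1) of Saa1 correlated with that of Saa2 at Pearson r = 0.917 (permutation p 2e-05, the smallest that the resamples can give, adjusted p 0.00018 over 9 pairs, Spearman rho 0.836). Orm2 (r = 0.772, rho = 0.768, adjusted permutation p 0.00351), Orm1 (r = 0.758, rho = 0.725, adjusted permutation p 0.00354) and Lcn2 (r = 0.738, rho = 0.743, adjusted permutation p 0.00526) came next. Saa3 (r = 0.678, rho = 0.618), Hp (r = 0.664, rho = 0.525), Stat3 (r = 0.627, rho = 0.575) and Saa4 (r = 0.569, rho = 0.582) had adjusted permutation p of 0.00886, 0.0107, 0.0144 and 0.0308. Socs3 did not follow Saa1 (r = 0.178, rho = 0.25, adjusted permutation p 0.53).

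The relation was also there between libraries of the same group. The r of deviations from the group means was 0.958 for Saa2, 0.876 for Orm2, 0.836 for Lcn2, 0.836 for Saa3, 0.812 for Orm1 and 0.722 for Hp, and 0.156 for Socs3. Leaving out kaempferol replicate 3 and myricetin replicate 7, the libraries farthest from the Saa1 median, gave r of 0.859 for Saa2, 0.792 for Orm1 and 0.686 for Orm2, which passed among 9 pairs (adjusted permutation p 0.00108, 0.00639 and 0.0251), and 0.606 for Lcn2 and 0.532 for Saa3 (adjusted permutation p 0.0641 and 0.115). Hp, Stat3 and Saa4 gave 0.416, 0.506 and 0.383 without them (adjusted permutation p 0.2, 0.115 and 0.219), so the relations of these 5 genes with Saa1 did not pass without the 2 libraries. Leaving them out narrows the range of Saa1 and leaves 13 libraries. Kaempferol replicate 8 was kept throughout. Of the 15 libraries it lay farthest from its group mean for Saa1 (-1.73), Saa2 (-1.77), Orm2 (-1.07) and Orm1 (-0.44). The relations without that library were not tested. Part of the r for Saa2 can come from reads that the near copies share.

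**Figure D5:**
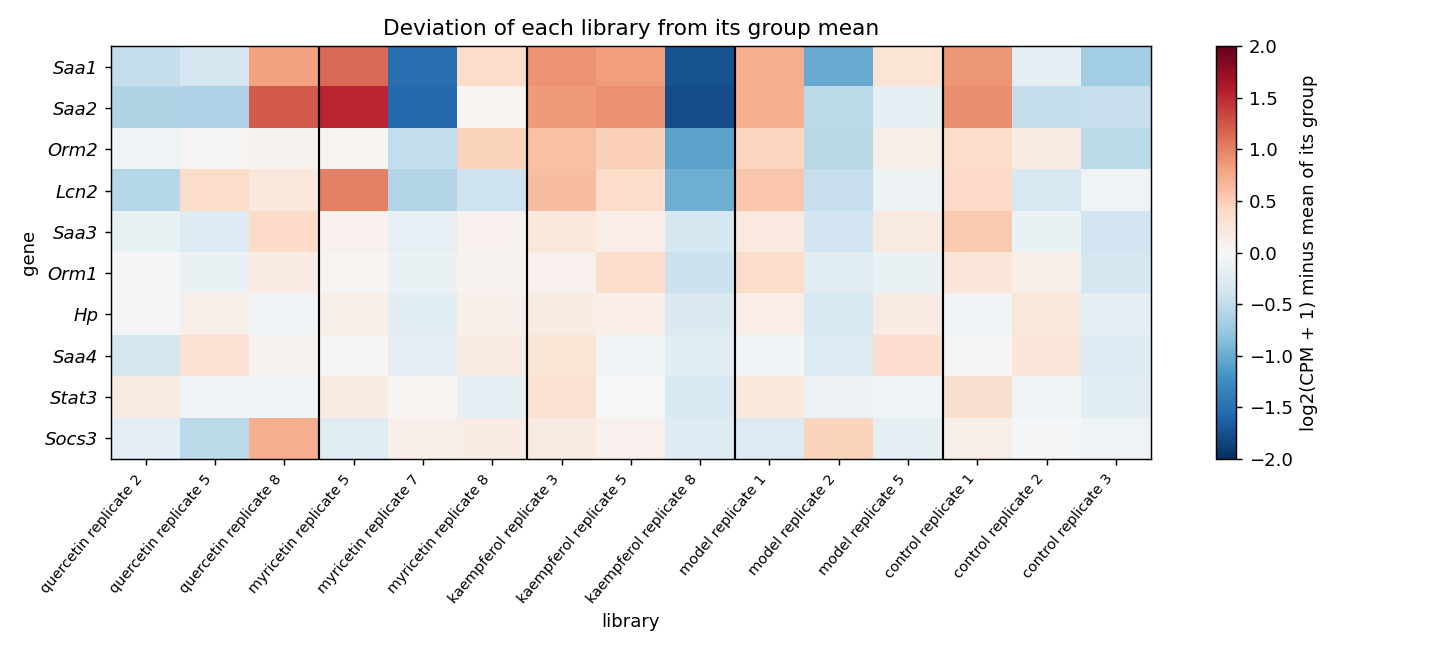
Deviation of log2(CPM + 1) from the group mean (color) for the 10 genes (down the page) in the 15 libraries (across, lines between groups). Kaempferol replicate 8 is low and quercetin replicate 8 and control replicate 1 are high for Saa1 and Saa2 together, while Socs3 has a pattern of its own.

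The genes whose profiles over the 15 libraries were most like those of the 10 were ranked among 9008 others with a mean of at least 5 CPM, as a description. Saa1 was most like Serpina3n (r = 0.833), a serine protease inhibitor of the acute phase, and Saa2 most like Fgb (r = 0.837), the fibrinogen beta chain. Saa3 was most like the TNF receptor gene Tnfrsf1a (r = 0.812), Sema6b (r = 0.799) and Fgb (r = 0.791), and Orm1 most like Serping1 (r = 0.873), the C1 inhibitor. Orm2 had Tmem176b (r = 0.9) first and Apcs, which encodes serum amyloid P (r = 0.808), as the third, and Lcn2 had Tmem176b (r = 0.786) and Tnfrsf1a (r = 0.754). Hp was most like R3hcc1l (r = 0.86), Saa4 most like Dusp22 (r = 0.798) and Stat3 most like Tgtp1 (r = 0.825) and Cpn2 (r = 0.824). The genes most like Socs3 were those of the ribosomal proteins Rps12 (r = 0.897) and Rpl36a (r = 0.85), and Imp3 (r = 0.845), which encodes a protein of ribosome assembly.

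Other acute phase genes showed few calls. In quercetin against model, 7.82% of all genes tested passed. Of 23 other positive acute phase genes tested, 2 rose and 0 fell in quercetin against model livers, the metallothioneins Mt1 and Mt2, which bind zinc and rose by 4.55 and 5.29 on the log2 scale. For myricetin, and for kaempferol, 0 of 23 passed against the model, and 0 of 23 passed for model against control. With kaempferol 20 of the 23 fold changes were positive, with a median of 0.38. Examples were the lipopolysaccharide-binding protein gene Lbp (0.75 ± 0.16, adjusted p 0.073, edgeR) and the fibrinogen genes Fga (0.49 ± 0.13, adjusted p 0.151) and Fgb (0.48 ± 0.15, adjusted p 0.189), whose libraries did not overlap. Against the control, 3 of 23 rose with kaempferol, where 13.4% of all genes tested passed. They were Lbp (0.52), the lipopolysaccharide co-receptor Cd14 (1.52) and the interleukin 1 receptor antagonist Il1rn (2.22). Of 8 negative acute phase genes, which the liver makes less of in inflammation, 1 rose with quercetin over the model, Serpina6 (1.07), the corticosteroid-binding globulin, and 0 passed in the other comparisons with the model or of the model with the control.

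Upstream of the members, the interleukin 6 family ligands Il6, Il11, Osm and Lif were too low to test. Of the 10 receptor and kinase genes tested, Il6st, which encodes gp130, fell in quercetin below model livers by 0.47 on the log2 scale, and Lifr, the leukemia inhibitory factor receptor, fell by 0.66. Il6st rose by 0.46 in model over control livers, the only one of 10 that passed there. The shares of all genes tested that passed were 7.82% in quercetin against model and 4.46% in model against control. With myricetin, and with kaempferol, 0 of 10 passed against the model. Among 15 STAT3 feedback and target factors, 2 rose in quercetin over model livers, Junb (0.97) and Cebpb (0.96), the gene of the C/EBP factor of the acute phase, and 2 fell, Stat5a and Stat5b, by 1.01 and 0.63. With myricetin, and with kaempferol, 0 of the 15 passed against the model.

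Of 13 genes of the interleukin 1, TNF and NF-kB arm, Nfkb1 fell by 0.43 in quercetin below model livers, where 7.82% of all genes tested passed. Of the 13, 0 passed in the other comparisons with the model or of the model with the control. Of 9 genes for receptors and clearance of the acute phase proteins, Lrp2, which encodes the endocytic receptor megalin, fell by 2.22 in quercetin below model livers and had 0.389, 0.333 and 0.554 CPM in quercetin livers, against 2.08, 1.86 and 2.04 CPM in model livers. In those other comparisons 0 of the 9 passed. In kaempferol livers 3 of 9 rose over the control, where 13.4% of all genes tested passed. They were the formyl peptide receptor gene Fpr1 (2.49) and the Toll-like receptor genes Tlr2 (1.93) and Tlr4 (1.05). Fpr1 had 1.94, 2.36 and 8.97 CPM in kaempferol replicates 3, 5 and 8, against 1.01, 0.966 and 0.373 CPM in control livers. Tlr2 had 4.98, 3.18 and 8.23 CPM, against 2.03, 1.29 and 0.994 CPM. The sizes of both changes thus lean on kaempferol replicate 8.

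Clock genes, whose levels follow the hour of day, also changed in quercetin livers. Of 11 clock genes, 6 rose and 4 fell in quercetin against model livers, where 7.82% of all genes tested passed. Among them were Arntl and Cry1, which fell by 3.43 and 2.83 on the log2 scale, and Dbp and Nr1d1, which rose by 5.74 and 4.3. With myricetin 3 rose (Nr1d1 by 4.03, Nr1d2 by 1.99 and Dbp by 2.65) and Cry1 fell by 1.80, where 0.395% of all genes tested passed. With kaempferol 0 of 11 passed against the model, where 5 genes passed in all. Yet 3 of the 11 lay above every model library, where 10.2% of all genes did so. Another 5 lay below, for which the share over all genes is not given. Cry1 had 22.9, 25.6 and 29.8 CPM in kaempferol livers and 51.99, 44.55 and 48.02 CPM in model livers. Against the control, 2 rose and 4 fell with kaempferol, where 13.4% of all genes tested passed. For model against control 0 of 11 passed, where 4.46% of all genes tested did. Of 8 glucocorticoid response genes, Zbtb16 rose by 1.29 in quercetin over model livers, and it fell by 2.67 in model below control livers, where the glucocorticoid receptor gene Nr3c1 rose by 0.40. For myricetin, and for kaempferol, 0 of 8 passed against the model. Against the control, 0 of the 8 rose and 4 fell with kaempferol, where 13.4% of all genes tested passed. The 8 genes summed to 662, 646 and 1465 CPM in kaempferol replicates 3, 5 and 8, and to 2019, 2821 and 1917 CPM in control livers. Most of each sum was Tat. The part of the hour of collection in the Socs3 and Saa3 results was not tested.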

How the data were processed

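Liver RNA of 15 libraries was analysed. The submitters' processing notes list DESeq2 1.4.5, RSEM 1.3.1, HISAT2 2.1.0 and Bowtie2 2.3.4.3, and the build GRCm38.p6, without saying which tool did what. The authors deposited expected counts, 5.37% of which were not whole (tolerance 1e-06), and these were rounded. TPM by the authors served for levels between genes. Per the file headers the same table gives the authors' log2 fold changes and q values. The 30 columns of FPKM and group averages were not used. Strand of counting is not given in the sources used here. Library totals were 15.85 to 17.58 M, which limits the precision of low genes.

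After filterByExpr (minimum count 10) and TMM scaling, edgeR 4.0.16 (R 4.3.3) fitted a robust quasi-likelihood model to the 15 libraries with group means only, leaving 10 residual degrees of freedom. Tests were 2-sided. The common biological coefficient of variation was 0.155. Standard errors are the fold change over the square root of F, and the 95% intervals follow from them. Correlations used log2(CPM + 1) and 100000 permutations over libraries (SciPy 1.17.1). Promoters came from RefSeq and identities from GENCODE M21 with Biopython 1.88. The fit was tested on simulated counts with 200 changed genes. Alternatives were DESeq2 1.42.0, its size factors, no filter, non-robust spread, only 2 groups, summed near copies, a replicate block and each library left out.

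The members, the gene lists and the tests were chosen with earlier results of these data known. The text names the 10 genes, up to 4 passing genes per list and comparison by smallest p, and the 3 most correlated genes per member; some genes this rule names are not reported here. The ratio of Saa2 to Saa1 and examples that did not pass were chosen after their values were seen.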

Additional observations from a re-analysis of the deposited data

How the results depend on the processing

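Of 637 values of the 10 genes under the alternatives, 570 kept their direction and their side of the threshold, 17 lost a call, 8 gained one and 42 turned, none of them past the threshold. The log2 fold change of Hp in quercetin against model turned to -0.0042 with size factors of DESeq2, -0.0020 with no filter on low counts and -0.0055 by DESeq2. With the replicate number as a block, Orm1 turned to 0.20 in quercetin against model, and in myricetin against model Saa3, Orm1 and Stat3 turned to 0.14, 0.18 and 0.066, as did Stat3 in myricetin against control, at 0.32. The sum of Orm1, Orm2 and Orm3, mostly Orm1, was 0.016 in quercetin and -0.11 in myricetin against model. These signs differ from those of Orm1 alone (-0.01, quercetin) and Orm2 alone (0.41, myricetin), and the sum is no measure of Orm2.

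Leaving out each library in turn, the values that changed sign ranged as follows. In quercetin against model, Saa1 ran from -0.26 to 0.68, Saa4 from -0.10 to 0.22, Orm1 from -0.12 to 0.19, Hp from -0.13 to 0.075 and Stat3 from -0.025 to 0.16. In myricetin against model, Saa1 ran from -0.61 to 0.49, Saa2 from -0.46 to 1.13, Saa3 from -0.24 to 0.056, Saa4 from -0.27 to 0.043, Orm1 from -0.24 to 0.080 and Lcn2 from -0.67 to 0.79. In kaempferol against model, Orm1 ran from -0.14 to 0.25. In model against control, Saa1 ran from -0.43 to 0.56, Saa3 from -0.50 to 0.043 and Orm1 from -0.29 to 0.035. Stat3 ran from -0.15 to 0.14 in myricetin and Socs3 from -0.23 to 0.010 in kaempferol against control.

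Of the 10 genes, the number that passed in quercetin against model was 1, but 3 with only the 2 groups in the fit (Orm2 and Lcn2 added), 2 by DESeq2 (Saa3 added) and 2 with the replicate block (Lcn2 added). In kaempferol against model it was 1, but 2 by DESeq2 and 0 with the block. In model against control it was 1, but 0 with no filter and 0 with the block. In kaempferol against control it was 2, but 1 with only 2 groups, and in quercetin against control 0, but 1 by DESeq2. Leaving out each library gave 0 to 1 in model against control, 0 to 1 in kaempferol against model, 0 to 1 in quercetin against control and 1 to 2 in kaempferol against control. Counts of all passing genes are given below for some of these settings only. They are not given for quercetin against model by DESeq2 or with 2 groups, nor for quercetin against control by DESeq2. A call gained there is printed without the share over all genes, and nothing is read from it.

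Counts of all passing genes moved as well. For quercetin, myricetin and kaempferol against model and for model against control they were 990, 50, 5 and 565, but 236, 5, 1 and 43 with the block. DESeq2 gave 206, 197 and 967 for myricetin, kaempferol and the model, no filter gave 18 for kaempferol, and fits of 2 groups gave 125 for myricetin and 21 for kaempferol. Leaving out each library gave 429 to 788, 13 to 65, 0 to 39 and 82 to 919. Against control, quercetin, myricetin and kaempferol had 1470, 1164 and 1697, but 201, 2 and 298 with the block, 768 for quercetin and 1075 for kaempferol in fits of 2 groups, and 669 to 1560, 470 to 1354 and 766 to 1941 when each library was left out. Of 9 correlations with Saa1, 8 passed, but 5 on the TPM of the authors and 3 without the 2 farthest libraries.

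The replicate numbers did not pair the samples. Deviations of 14 pairs with the same number correlated at -0.285 to 0.113, and those of 76 other pairs at -0.302 to 0.354. The block left 5 residual degrees of freedom in place of 10. Limits are 3 libraries a group, the wide spread of Saa1 and Saa2, and low counts of Lcn2 and Socs3.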
